A study of Mus musculus with 8 samples.

Results

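Fibroblast growth factor (FGF) ligands and receptors were examined in pancreatic islets from mice with and without an induced knockdown of the IGF-1 receptor in β-cells. The set held 10 genes: the ligands Fgf1 and Fgf9, the intracellular family members Fgf12 and Fgf14, the receptors Fgfr1, Fgfr2, Fgfr3 and Fgfr4, the receptor-like gene Fgfrl1 and the coreceptor gene Klb. Members were matched by mouse symbol to Ensembl identifiers, and all 10 were found among the 53012 genes of the count table. All 10 were also among the 15474 genes that passed the filter on low counts, and each met the filter's minimum in all 8 mice. Fgf1 was chosen by its lower level in the knockdown islets of these same 8 mice, so its difference between the groups is given as a description, with no test. The other 9 members were tested in a fit over all 15474 genes.

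RNA-seq was performed on whole islets kept separate for each mouse, with 4 βIgf1r mice (the control group; M148, M151, M152 and M153) and 4 βIgf1rKD mice (the knockdown group; M145, M146, M149 and M150). All 8 mice were 17 months old and carried 2 floxed alleles of Igf1r in which exon 3 can be removed. The βIgf1r mice were Ins1-CreERT2-/- Igf1r flox/flox and received corn oil, and the βIgf1rKD mice were Ins1-CreERT2+/- Igf1r flox/flox and received tamoxifen in corn oil at 0.075 mg/g on 5 consecutive days, with islets taken 7 days after the last injection. Cre and tamoxifen were both present only in the knockdown group, so their effects and that of the recombined allele cannot be told apart. The genotype names Ins1 as the driver of Cre, whereas the study's methods speak of a rat insulin promoter. Both groups held males and females, but the labels do not mark the sex of single mice.

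FGFs that are secreted bind FGF receptors, which are tyrosine kinases of the cell surface, together with heparan sulfate chains or with a klotho coreceptor. The activated receptors recruit the adaptor FRS2 and switch on the RAS, RAF and ERK cascade, whose activity is in turn damped by Sprouty proteins and dual-specificity phosphatases. FGF signaling directs growth of the embryonic pancreas, and in the adult β-cell signaling through FGFR1 has been tied to insulin processing and glucose sensing. Fgf12 and Fgf14 belong to the FGF homologous factors, which stay inside the cell and bind voltage-gated sodium channels instead of receptors.

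Libraries held 21633925 to 42391106 estimated counts, and levels are given as CPM (counts divided by the library's size in units of 1e6 counts) on library sizes scaled by the trimmed mean of M-values (TMM). The labelled tissue was borne out by its hormones. Ins1 lay between 31090 and 50370 CPM in the βIgf1r mice and between 19120 and 28540 CPM in the βIgf1rKD mice. Ins2, the more abundant insulin gene, lay between 97050 and 127200 CPM in βIgf1r and between 90220 and 138500 CPM in βIgf1rKD islets. Its log2 fold change was -0.08. Of 9 β-cell markers, 3 were fitted higher and 6 lower in the knockdown. Ins1 was the 1 of them at an unadjusted p under 0.05 and the 1 whose groups did not overlap, against 2.22% of all genes without overlap. Its log2 fold change was -0.92 (SE 0.33, unadjusted p = 0.0204 and adjusted p = 0.987 in edgeR). Gcg lay between 11940 and 38220 CPM over all 8 mice. For Igf1r, the targeted gene, the counts cover the whole gene and not exon 3 alone, and the log2 fold change was -0.08 (SE 0.11), from a mean of 53.6 CPM among the controls to 50.7 CPM in the knockdown. Cell types other than endocrine cells differed between the libraries. The summed level of 12 acinar markers ran from 18003 to 185281 CPM in βIgf1r and from 40323 to 223091 CPM in βIgf1rKD islets, with all 12 fitted higher in the knockdown and 0 of them at an unadjusted p under 0.05 in edgeR. The sum of 11 endothelial markers ran from 479 to 596.2 CPM in βIgf1r and from 425.6 to 477.9 CPM in βIgf1rKD islets, with all 11 fitted lower and 6 of them at an unadjusted p under 0.05. Of all genes tested, 52.3% were fitted higher, 47.7% lower and 4.12% were at that threshold. The sum of 9 stromal markers was 197.6 to 219 CPM in βIgf1r islets and 110.3 to 363.9 CPM in βIgf1rKD islets. None of the acinar, endothelial or stromal markers was at 0 in any mouse. Xist, the RNA that coats the inactive X chromosome, was at 270.1 CPM or above in 1 βIgf1r mouse (M151) and 3 βIgf1rKD mice (M145, M146 and M150) and at 6.71 CPM or below in the other 4. With Xist taken as a marker of sex, the groups were thus not balanced for sex. In these bulk samples, fewer cells of a type and less RNA per cell cannot be told apart.

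Across all genes, 0 of the 15474 (0%) passed a Benjamini-Hochberg adjusted p of 0.05 in the quasi-likelihood test of edgeR, and the smallest adjusted p was 0.948. At an unadjusted p under 0.05 the count was 637 (4.12%), made up of 2.23% of the genes tested that were higher and 1.89% that were lower in the knockdown. DESeq2 called 8 genes and limma-voom 1 gene at an adjusted p under 0.05. Of the 9 members other than Fgf1, 0 passed the adjusted threshold by edgeR, DESeq2 or limma-voom and 0 passed at an unadjusted p under 0.05 in edgeR. Limma-voom alone placed 1 of the 9 (Fgfr4) at an unadjusted p under 0.05. In 6 of the 9 the fitted level was lower in βIgf1rKD islets, where 47.7% of all genes tested were lower, and in 3 it was higher, where 52.3% of all genes were. The median log2 fold change of the 9 was -0.17, compared with 0.008 over all genes tested. In 0 of the 9 were the groups free of overlap, against 2.22% of all genes.

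Fgf1 encodes a secreted ligand that binds all FGF receptors and leaves the cell without a signal peptide. The gene (ENSMUSG00000036585) is on the minus strand of chromosome 18. Its level was 31.4 CPM in M148, 21.2 CPM in M151, 23.2 CPM in M152 and 26.5 CPM in M153 of the βIgf1r group. In the βIgf1rKD group it was 14.9 CPM in M145, 7.86 CPM in M146, 21.6 CPM in M149 and 15.5 CPM in M150. The knockdown mice M145, M146 and M150 thus lay below every control, while M149 lay just above the lowest control, M151. The means were 25.6 ± 4.43 CPM (SD, n = 4) and 14.9 ± 5.62 CPM (n = 4), and the log2 fold change was -0.78 (SE 0.26). Each SE given for Fgf1 is derived from the F statistic of its fit. Because this difference chose the gene, the SE is no evidence for it. These values rested on 559 counts or more in each control and on 220 or more in each knockdown library. Leaving out M146, the lowest mouse, gave -0.57, and leaving out M149 gave -1.01.

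The order of the 8 mice by Fgf1 closely followed their order by the endothelial marker sum. From high to low, Fgf1 ran M148, M153, M152, M149, M151, M150, M145 and M146, and the endothelial sum ran M148, M153, M152, M151, M149, M150, M146 and M145. The orders differed only by 2 exchanges of neighbors. Fgf1 was chosen for its difference between the groups, and the endothelial sums of the groups did not overlap. Part of the shared order therefore follows from that choice. Among the endothelial markers were Kdr, the main VEGF receptor, at 106 CPM in βIgf1r and 81.5 CPM in βIgf1rKD islets, and Cdh5, the cadherin of endothelial junctions, at 20.7 and 17 CPM. With a score of the 11 endothelial markers as a covariate, the fitted log2 fold change of Fgf1 was -0.02 (SE 0.41). The endothelial markers themselves differed between the groups, so that this fit cannot tell the score from the group. Their part in the Fgf1 values was not tested.

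**Figure D1:**
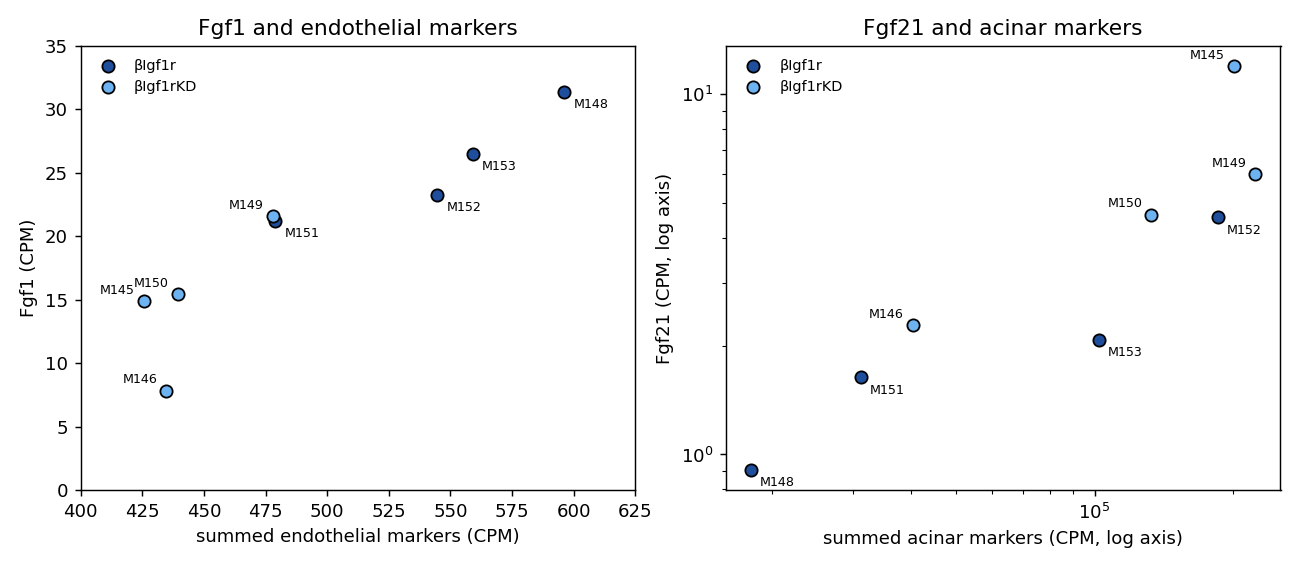
Each point is 1 mouse, dark for βIgf1r and light for βIgf1rKD. The left panel plots Fgf1 against the sum of 11 endothelial markers, both in CPM on linear axes, with the horizontal axis starting at 400, and the right panel plots Fgf21 against the sum of 12 acinar markers in CPM on log axes. Fgf1 was highest in M148, which also had the highest endothelial sum (596.2 CPM), and the 3 lowest mice for Fgf1 were the 3 lowest for the endothelial sum. Fgf21 was lowest in M148, which had the lowest acinar sum (18003 CPM).

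Fgf1 was also divided along Xist. The 4 mice with the highest Fgf1 (M148, M153, M152 and M149) were the 4 with Xist at 6.71 CPM or below, and 3 of these were βIgf1r. Among these 4, Fgf1 in the 1 knockdown mouse (21.6 CPM) was below the 3 controls (23.2 to 31.4 CPM). Among the 4 mice with Xist at 270.1 CPM or above, the 3 knockdown mice (7.86 to 15.5 CPM) were below the 1 control (21.2 CPM). With Xist as a covariate the log2 fold change was -0.61 (SE 0.24). Each of these strata held a single mouse of 1 group. Fgf1 was chosen for its lower level in these same knockdown mice, so its order within the strata is a description only. The part of Xist in the Fgf1 values was not tested.

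Fgf9 encodes a secreted ligand known for its signaling between epithelium and mesenchyme. It was at 8.28 CPM in M148, 9.31 CPM in M151, 6.91 CPM in M152 and 9.15 CPM in M153, and in the knockdown group at 7.44 CPM in M145, 7.21 CPM in M146, 6.92 CPM in M149 and 8.31 CPM in M150. The lowest control, M152, lay at the level of the lowest knockdown mouse, and the groups overlapped over most of their range. The log2 fold change was -0.17 (SE 0.13, unadjusted p = 0.21 and adjusted p = 0.987 in edgeR), or -0.11 with the acinar and -0.28 with the endothelial score as a covariate.

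Fgf12, one of the homologous factors that bind sodium channels, was the most abundant of the 10 per kilobase of the longest coding transcript, though not by merged exon length in βIgf1r islets. Its levels were 29.1 CPM in M148, 28.8 CPM in M151, 21.4 CPM in M152 and 34.5 CPM in M153. The knockdown mice had 25.3 CPM in M145, 20.4 CPM in M146, 22.4 CPM in M149 and 27.7 CPM in M150. M148, M151 and M153 were above every knockdown mouse, and M152 was among the lowest of all. The fitted difference on the log2 scale was -0.25 (SE 0.15, unadjusted p = 0.129 and adjusted p = 0.987 in edgeR), and it ran from -0.36 (unadjusted p = 0.0172) without M152 to -0.15 (unadjusted p = 0.344) without M153.

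Fgf14, the other homologous factor of the set, was low. In the βIgf1r group it was at 1.68 CPM in M148, 3.31 CPM in M151, 1.71 CPM in M152 and 1.80 CPM in M153. In the βIgf1rKD group it was at 2.01 CPM in M145, 1.14 CPM in M146, 1.52 CPM in M149 and 2.52 CPM in M150. M151 stood well above the other 3 controls, and the direction of the difference rested on it: the log2 fold change was -0.23 (SE 0.32, unadjusted p = 0.485 and adjusted p = 0.988 in edgeR) with M151 and 0.064 without it. Without M146 it was -0.066, without M150 -0.45, with Xist as a covariate -0.43 and with the endothelial score -0.98 (unadjusted p = 0.0992). M151 also had the highest level of Gcg, the glucagon gene of α-cells. For both Gcg and Fgf14 the order was led by M151, M150 and M145, which were also the 3 mice with the most Xist. The part of α-cell content and of Xist in the Fgf14 values was not tested.

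Sequence upstream of 1 transcript start each is shown for Fgf9 and Fgf12, the most abundant members per kilobase that have a window in the RefSeq promoter table used here. Both windows lie within the annotated bounds of their gene, so they do not precede its outermost start. Each window is the 250 bases before a RefSeq transcript start in the GRCm38.p6 build, written 5′ to 3′ on the gene's strand, with CpG dinucleotides in capitals. The windows are chr14:58072436-58072685 (plus strand) for Fgf9 and chr16:28564952-28565201 (minus strand) for Fgf12, and neither overlaps an annotated exon.
Fgf9: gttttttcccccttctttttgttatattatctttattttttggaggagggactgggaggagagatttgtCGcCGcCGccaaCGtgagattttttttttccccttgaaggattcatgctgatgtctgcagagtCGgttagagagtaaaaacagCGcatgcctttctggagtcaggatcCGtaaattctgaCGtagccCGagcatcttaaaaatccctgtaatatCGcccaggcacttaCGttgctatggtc
Fgf12: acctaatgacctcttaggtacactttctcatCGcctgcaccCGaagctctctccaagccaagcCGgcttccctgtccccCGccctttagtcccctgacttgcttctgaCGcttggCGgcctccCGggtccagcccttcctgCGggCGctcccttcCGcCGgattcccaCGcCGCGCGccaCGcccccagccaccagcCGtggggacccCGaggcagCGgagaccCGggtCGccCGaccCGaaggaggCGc
The Fgf9 window holds 11 CpG at a GC content of 44.8%, and 64.4% of the 32851 windows in the table hold fewer CpG. The Fgf12 window shown holds 24 CpG at a GC content of 69.2%, and 88% of the windows hold fewer. Windows at other starts of Fgf12 hold 18, 20 and 25 CpG. The median window holds 6 CpG at 52.4% GC. Both strands of 12 windows, from 8 of the 10 members, were searched for 4 short motifs. TATAAA occurs in 12.4% of all windows and in none of the 12. The same was so of TGACGTCA, which occurs in 1.55% of all windows. CCGGAAGT occurs in 2.88% of all windows and, among the 12, only in one of Fgfrl1. The same Fgfrl1 window was the only one to hold CACGTG, found in 6.02% of all windows. A match to such letters describes the sequence and is not evidence of binding.

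**Figure D2:**
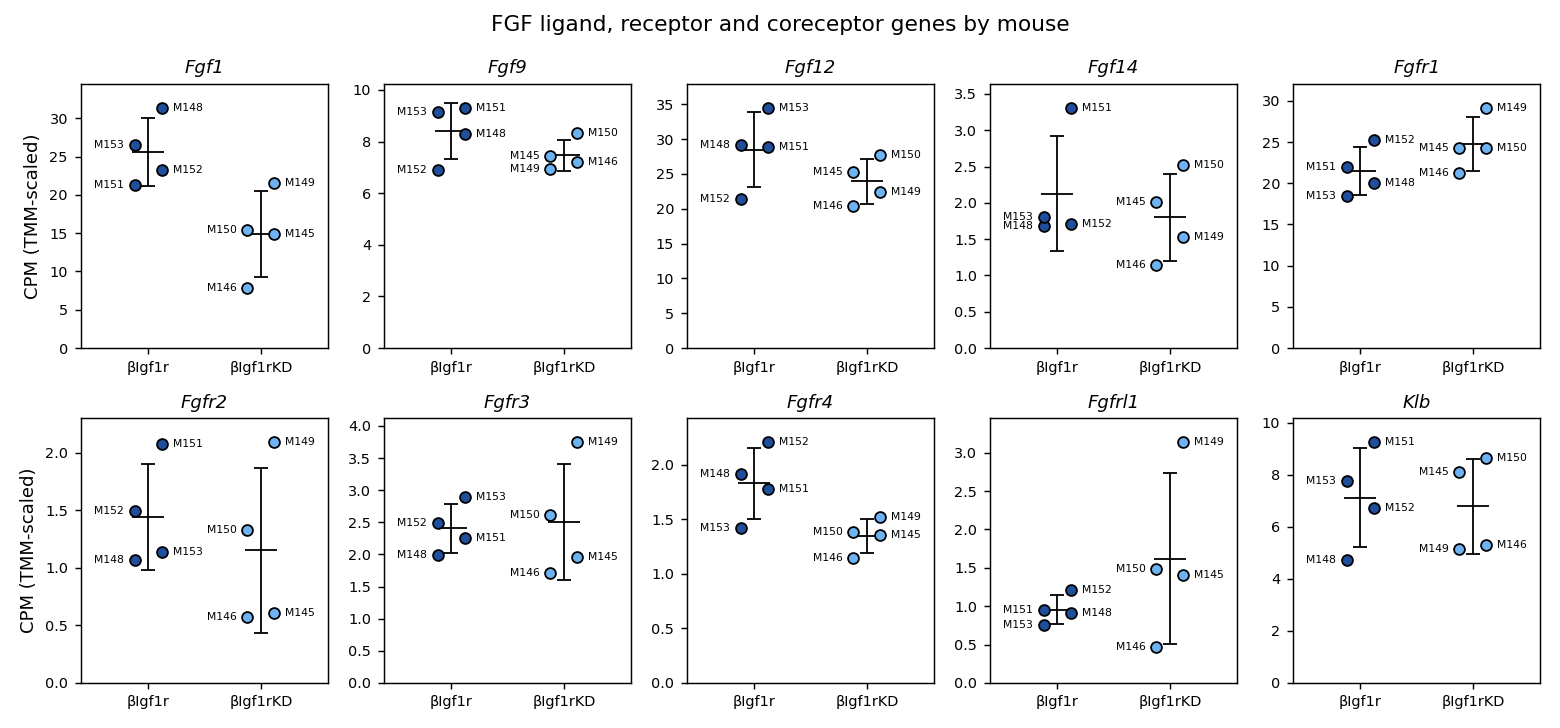
Each panel shows 1 of the 10 members, with its level in CPM on a linear axis from 0. Points are single mice, dark for the 4 βIgf1r and light for the 4 βIgf1rKD mice, and the bars mark each group's mean and SD. The groups overlap in all 10 panels, in that of Fgf1 only through M149 at 21.6 CPM and M151 at 21.2 CPM.

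Fgfr1, the receptor tied to β-cell function, was the most abundant of the 4 receptors per kilobase. It was at 20.1 CPM in M148, 22 CPM in M151, 25.2 CPM in M152 and 18.5 CPM in M153. In βIgf1rKD islets it was at 24.3 CPM in M145, 21.3 CPM in M146, 29.2 CPM in M149 and 24.2 CPM in M150. The knockdown mice lay within or above the range of the controls. The log2 fold change was 0.20 (SE 0.12, unadjusted p = 0.133 and adjusted p = 0.987 in edgeR), and it depended on single mice: it was 0.29 (unadjusted p = 0.0389) without M152 and 0.12 (unadjusted p = 0.356) without M149. It was 0.094 with an acinar score as a covariate.

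The other 3 receptors were lower per kilobase. Fgfr2, a receptor of epithelial cells in its IIIb form, ranged from 1.06 to 2.07 CPM in βIgf1r and from 0.57 to 2.09 CPM in βIgf1rKD islets, where M145 and M146 were below every control and M149 above them. Its log2 fold change was -0.32 (SE 0.43, unadjusted p = 0.473 in edgeR), and it ran from -0.75 without M149 to -0.098 without M151 (-0.12 without M145 and -0.10 without M146) and was -0.59 with the acinar score. Fgfr3, a receptor best known for restraining bone growth, ranged from 2 to 2.89 CPM in βIgf1r and from 1.71 to 3.74 CPM in βIgf1rKD islets, again with M146 lowest and M149 highest. Its log2 fold change was 0.06 (SE 0.27, unadjusted p = 0.821 in edgeR), or -0.19 without M149 and 0.21 without M146. The gene-level counts do not separate the IIIb and IIIc forms of these receptors, which differ in the ligands they bind.

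Fgfr4, the receptor that serves FGF15 together with β-klotho in liver, was at 1.92 CPM in M148, 1.78 CPM in M151, 2.21 CPM in M152 and 1.42 CPM in M153. The knockdown islets had 1.36 CPM in M145, 1.14 CPM in M146, 1.52 CPM in M149 and 1.38 CPM in M150. The other 3 controls were above every knockdown mouse, and M153 was within the knockdown range. On the log2 scale the difference was -0.44 (SE 0.22, unadjusted p = 0.0698 and adjusted p = 0.987 in edgeR), with as few as 30 counts in a control and 29 in a knockdown library. Its unadjusted p was 0.0369 without M153 and 0.0474 when genes needed 10 counts in every mouse, both in edgeR, and 0.0496 by limma-voom. Under every other alternative it was above 0.05, from 0.0654 without M149 to 0.452 with the endothelial score, both in edgeR. It was 0.0961 by DESeq2 and, in edgeR, 0.182 without M152. Over the 16 alternative settings the log2 fold change stayed between -0.55 and -0.34.

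Fgfrl1 encodes a receptor-like protein that binds FGFs and lacks the intracellular kinase. It was at 0.905 CPM in M148, 0.946 CPM in M151, 1.21 CPM in M152 and 0.758 CPM in M153. The knockdown mice were at 1.40 CPM in M145, 0.464 CPM in M146, 3.13 CPM in M149 and 1.48 CPM in M150. M145, M149 and M150 exceeded every control, and M146 was below them all. The log2 fold change was 0.75 (SE 0.48, unadjusted p = 0.149 and adjusted p = 0.987 in edgeR). It was 0.22 without M149 and 1.06, with an unadjusted p of 0.0144, without M146. With an acinar score as a covariate the value was 0.16 (SE 0.54), with the endothelial score 1.33 (SE 0.88), and by limma-voom 0.44.

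Klb encodes β-klotho, the coreceptor for FGF21 and FGF15. It was at 4.71 CPM in M148, 9.24 CPM in M151, 6.73 CPM in M152 and 7.77 CPM in M153. In βIgf1rKD islets it was at 8.09 CPM in M145, 5.28 CPM in M146, 5.14 CPM in M149 and 8.63 CPM in M150. Both groups spanned nearly the same range. This gave a log2 fold change of -0.06 (SE 0.24, unadjusted p = 0.806 and adjusted p = 0.993 in edgeR), and it ran from -0.22 without M148 to 0.092 without M151. Its 3 highest mice, M151, M150 and M145, were the 3 highest for Gcg, in the same order, and the 3 highest for Xist. With the endothelial score as a covariate the value was -0.87 (SE 0.38, unadjusted p = 0.048). The part of these markers in the Klb values was not tested.

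Single mice stood out across several members. M149 was the highest of the 8 mice for Fgfr1, Fgfr2, Fgfr3 and Fgfrl1, and M146 was the lowest for 7 of the 10 members (Fgf1, Fgf12, Fgf14, Fgfr2, Fgfr3, Fgfr4 and Fgfrl1). Both mice were in the knockdown group. Fgf1 was chosen for its low level in that group, and how often these mice were the extremes over all genes was not counted. The same mice had the highest and the lowest sum of stromal markers, at 363.9 CPM in M149 and 110.3 CPM in M146. M149 was not set apart by stromal markers alone. It also had the highest sums of acinar (223091 CPM), ductal (303.4 CPM) and macrophage markers (288.1 CPM), for none of which M146 was lowest. Col1a1, the fibrillar collagen made by fibroblasts, was at 54.8 CPM in M149 and 1.86 CPM in M146, against 7.87 to 17.6 CPM in the βIgf1r mice. Of the 9 stromal markers, 4 were fitted higher and 5 lower in the knockdown. The part of stromal or other tissue content in the receptor values was not tested.

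**Figure D3:**
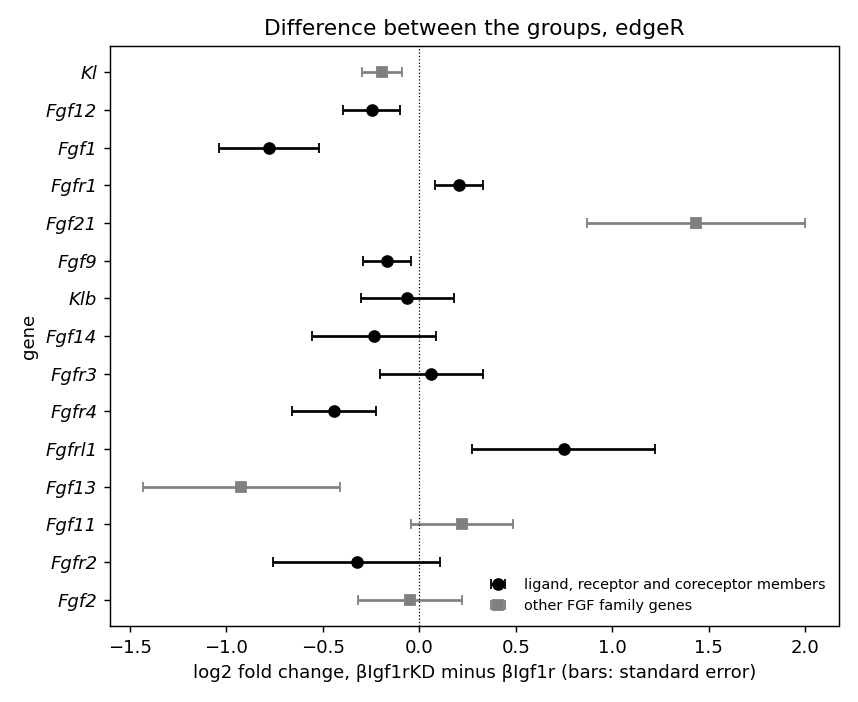
Circles (members) and squares (other genes of the family) are log2 fold changes of βIgf1rKD over βIgf1r islets from the edgeR fit for each FGF ligand, receptor and klotho gene tested, and the bars are the standard errors. Fgf1, at -0.78, was the member picked for its difference, and among the other 9 members the values ran from -0.44 (Fgfr4) to 0.75 (Fgfrl1).

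Levels of different genes were compared as CPM per kilobase, using the length of the longest coding transcript. In βIgf1r islets Fgf12 was at 6.88 ± 1.30 CPM per kb (SD, n = 4) and Fgf1 at 6.43 ± 1.11, which did not differ beyond their spread. Fgfr1 followed at 4.25 ± 0.58 CPM per kb, then Fgf9 at 2.34 ± 0.31 and Klb at 2.01 ± 0.54. The gaps from Fgf1 to Fgfr1 and below Klb were larger than the SDs on either side, and that between Fgf9 and Klb was not. The remaining members were below 1 CPM per kb, with Fgf14 at 0.589 ± 0.22, Fgfr3 at 0.567 ± 0.09 and Fgfr4 at 0.551 ± 0.098 not separated by their spread. Fgfrl1 at 0.410 ± 0.081 and Fgfr2 at 0.335 ± 0.11 closed the order.

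The same comparison was made in βIgf1rKD islets. Fgf12 was at 5.79 ± 0.77 CPM per kb, Fgfr1 at 4.91 ± 0.65 and Fgf1 at 3.75 ± 1.41, but the difference between Fgfr1 and Fgf1 was within the spread of Fgf1, and by the length of all merged exons Fgf1 was ahead, at 2.74 against 2.50 CPM per kb. Fgf9 at 2.08 ± 0.17 and Klb at 1.92 ± 0.52 CPM per kb came next, again not separated. Fgfrl1 was at 0.696 ± 0.48 CPM per kb, and its spread covered Fgfr3 at 0.591 ± 0.21, Fgf14 at 0.498 ± 0.17 and Fgfr4 at 0.406 ± 0.047. Merged exon length also put Fgf1 ahead of Fgf12 in βIgf1r islets, at 4.68 and 4.59 CPM per kb.

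**Figure D4:**
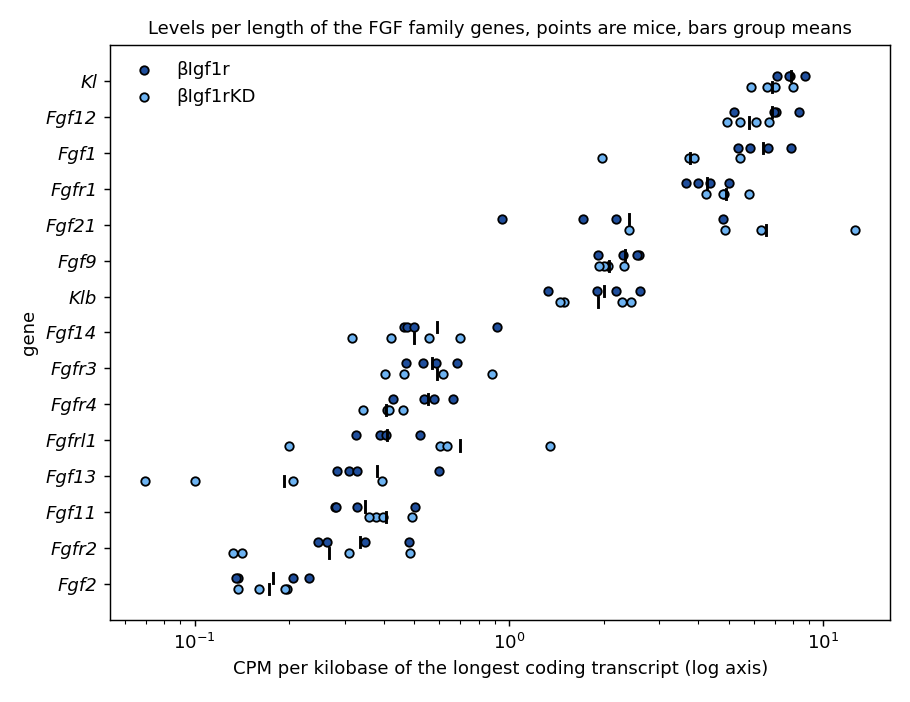
Levels of the FGF ligand, receptor and klotho genes tested are shown in CPM per kilobase of the longest coding transcript on a log axis. Points are mice, dark for βIgf1r and light for βIgf1rKD, and the bars mark the means of 4 mice. Fgf12, Fgf1 and Fgfr1 were the highest of the 10 members in both groups, and Fgfr2 was the lowest at 0.335 and 0.267 CPM per kb.

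Most of the rest of the FGF family was below the filter on low counts. The 29 mouse genes for FGFs, their receptors and the klothos included 19 that were not members, and 5 of these 19 were tested: Fgf2, Fgf11, Fgf13, Fgf21 and Kl. The other 14 had at most 8 counts in any mouse, and Fgf3, Fgf6 and Fgf15 were at 0 in every mouse. A count of 0 allows up to 3 counts per library, which corresponds to 0.074 CPM in the deepest and 0.142 CPM in the shallowest library, for counting error only. Kl, the α-klotho gene that serves as the coreceptor for FGF23, was at 7.85 ± 0.68 CPM per kb in βIgf1r islets, not separated from Fgf12 by the spread and behind Fgf1 and Fgf12 by merged exon length. Its values were 36.3 to 44.8 CPM in βIgf1r and 30.1 to 41.0 CPM in βIgf1rKD islets, with a log2 fold change of -0.19 (SE 0.11, unadjusted p = 0.0993 in edgeR). That value was -0.28 (unadjusted p = 0.0204) without M146, -0.13 without M149, -0.26 (unadjusted p = 0.0442) with Xist as a covariate and -0.078 with the acinar score. Of the others, Fgf13 (a homologous factor like Fgf12) had a log2 fold change of -0.92 (SE 0.51, unadjusted p = 0.102 in edgeR), Fgf11 one of 0.22 (SE 0.26) and Fgf2 one of -0.05 (SE 0.27). Fgf13 met the filter's minimum in only 6 mice, with 15 counts in the lowest control and 4 in the lowest knockdown library. Its groups overlapped, at 0.711 to 1.49 CPM in βIgf1r and 0.174 to 0.987 CPM in βIgf1rKD islets.

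Fgf21, the endocrine ligand that acts through β-klotho and is made by liver and by exocrine pancreas, was the 1 gene of the 5 at an unadjusted p under 0.05, and it did not pass adjustment. It was at 0.905 CPM in M148, 1.64 CPM in M151, 4.56 CPM in M152 and 2.08 CPM in M153. In βIgf1rKD islets it was at 12 CPM in M145, 2.29 CPM in M146, 6.01 CPM in M149 and 4.64 CPM in M150. M145, M149 and M150 were above every control, though M150 and M152 were nearly level. The log2 fold change was 1.44 (SE 0.57, unadjusted p = 0.0304 and adjusted p = 0.987 in edgeR), and it was 0.91 without M145 and 2.02 without M152. The unadjusted p was 0.0688 to 0.118 in edgeR when M148, M151, M153 or M145 was left out.

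The 4 mice with the least Fgf21 were also the 4 with the lowest acinar sums, but not in the same order. The acinar sum was 18003 CPM in M148, 31183 CPM in M151 and 40323 CPM in M146, the 3 lowest of the 8, and Fgf21 was among the 4 lowest in each of them. M153 had less Fgf21 than M146, at 2.085 against 2.285 CPM, with a far higher acinar sum of about 102300 CPM. With an acinar score as a covariate the log2 fold change of Fgf21 was 0.67 (SE 0.32, unadjusted p = 0.0677), and with the endothelial score it was 0.40 (SE 1.24). The part of acinar and endothelial tissue in the Fgf21 values was not tested.

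Heparan sulfate proteoglycans and the enzymes that build or trim their chains hold FGFs at the receptor. Of 28 such genes, 26 were tested, of which 18 were fitted higher and 8 lower in βIgf1rKD islets, with a median log2 fold change of 0.080. Over all genes tested, 52.3% were higher, 47.7% lower and 4.12% at an unadjusted p under 0.05. At an unadjusted p under 0.05 there were 0 higher and 1 lower, the glypican gene Gpc4, which was also the most abundant of the 26 per kilobase. It ran from 75.3 to 90.4 CPM in βIgf1r and from 65.8 to 77.7 CPM in βIgf1rKD islets, with a log2 fold change of -0.22 (SE 0.083, unadjusted p = 0.027 and adjusted p = 0.987 in edgeR). With the endothelial score as a covariate it was -0.04, and its unadjusted p was 0.0528 to 0.0688 when M148, M152, M153, M146 or M150 was left out. Gpc4 lies on the X chromosome, and with Xist as a covariate its log2 fold change was -0.15 (unadjusted p = 0.0996 in edgeR). The part of Xist in the Gpc4 values was not tested.

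The relay from the receptor to ERK showed no gene past the threshold. All 22 relay genes (FRS2 and other adaptors, RAS, RAF, MEK and ERK genes) were tested, 9 fitted higher and 13 lower, with 0 at an unadjusted p under 0.05 and a median of -0.015. Of all genes tested, 47.7% were lower and 4.12% were at that threshold. The most abundant per kilobase was Mapk3, the gene of ERK1, at 166 ± 10.6 CPM in βIgf1r and 164 ± 14 CPM in βIgf1rKD islets (SD, n = 4 each), with a log2 fold change of -0.02 (SE 0.091).

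Feedback and target genes of FGF and ERK signaling did not pass the test in either direction. Of 17 listed, 14 were tested. Spry3 was not matched, and Etv4 and Flrt3 had too few counts. Of the 14, 11 were fitted lower and 3 higher, with 0 at an unadjusted p under 0.05 and a median of -0.14. Among all genes tested 47.7% were lower and 4.12% were at that threshold. Dusp5, a phosphatase that inactivates ERK in the nucleus, was the most abundant per kilobase, at 32.6 ± 5.82 CPM in βIgf1r and 28.5 ± 3.09 CPM in βIgf1rKD islets (SD, n = 4 each), with a log2 fold change of -0.20 (SE 0.14, unadjusted p = 0.189 in edgeR). Without M151 it was -0.32 (unadjusted p = 0.0107), and with the endothelial score as a covariate its direction turned, to 0.25.

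FGF1 leaves cells with the help of S100A13 and a fragment of synaptotagmin 1, and further proteins bind FGFs inside or outside the cell. Of 6 such genes 5 were tested, and all 5 were fitted lower, with 0 at an unadjusted p under 0.05 and a median of -0.13. Over all genes tested 47.7% were lower and 4.12% were at that threshold. Api5, whose protein binds FGF2 in the nucleus, was the most abundant per kilobase, with a log2 fold change of -0.04 (SE 0.11, unadjusted p = 0.727 in edgeR). That value was 0.0025 with the acinar score and 0.02 with the endothelial score as a covariate.

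Sodium channel genes, whose proteins are the partners of FGF12 and FGF14, were tested for 8 of 10 listed. Of these 3 were fitted higher and 5 lower, with a median of -0.18, and 1 in each direction was at an unadjusted p under 0.05. Among all genes tested 47.7% were lower, and 4.12% were at that threshold in either direction. Scn3a, a pore-forming subunit found in islet cells, was at 12.3, 13.9, 11.8 and 13.1 CPM in the controls M148, M151, M152 and M153 and at 11.9, 7.68, 9.19 and 10.9 CPM in the knockdown mice M145, M146, M149 and M150. Only M145 reached the range of the controls. The log2 fold change was -0.37 (SE 0.14, unadjusted p = 0.0251 and adjusted p = 0.987 in edgeR). Leaving out M151, M153, M146 or M149 put the unadjusted p at 0.0508 to 0.0633. Scn4b, an auxiliary subunit, was near the limit of detection, with 5 counts in the lowest control, and its log2 fold change was 1.12 (SE 0.48, unadjusted p = 0.0427 and adjusted p = 0.987 in edgeR) or 0.67 without M145, and 0.24 with the endothelial score as a covariate. The unadjusted p of Scn4b was 0.0552 to 0.166 when M148, M151, M153, M145 or M149 was left out.

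**Figure D5:**
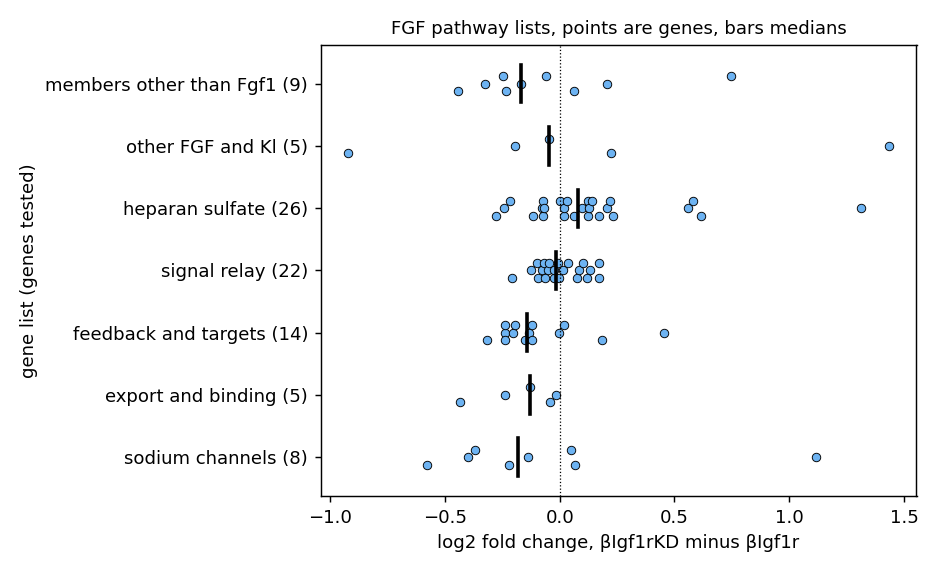
Each point is the log2 fold change of 1 gene, βIgf1rKD over βIgf1r islets, arranged by list, and the line marks the median of the list. The medians ran from -0.18 for the sodium channel genes to 0.080 for the heparan sulfate genes. Fgf1 is left out. The highest point was Fgf21 at 1.44, followed by the heparan sulfate gene Sdc1 at 1.31 and Scn4b at 1.12. Sdc1 was at 30.8 CPM in M149 and at most 5.17 CPM in any other mouse. The lowest point was Fgf13 at -0.92, with as few as 4 counts in a library.

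Genes whose levels varied most like those of 3 members were read off over the 8 mice, after subtracting each group's mean from log2 CPM. The genes correlated share the same 8 libraries, the correlations are the highest of 15474, and they are given as a description. For Fgf1 the 4 nearest genes were Cops6 (r = 0.985), Zcwpw2 (r = 0.976), Ephx4 (r = 0.975) and E130208F15Rik (r = 0.973). For Klb they were Rps27rt and Erap1 (r = 0.983 each), Zfp882 (r = 0.972) and Gm47469 (r = 0.970). For Fgfr4 they were Magi1 (r = 0.963), Fes (r = 0.951), Gbp3 (r = 0.944) and Slco4a1 (r = 0.930).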

How the data were processed

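Whole islets of 4 βIgf1r (CTRL) and 4 βIgf1rKD (KD) mice were profiled by bulk RNA-seq, and each sample's label gave its group and mouse number. The authors deposited gene-level estimated counts per mouse, which were rounded to whole numbers. The submitters' processing notes name fastp, kallisto and GRCm38, and their versions and the transcript annotation are not given in the sources used here. Gene symbols and lengths came from GENCODE M21, which matched 51906 of the 53012 identifiers, and 200 of these share a symbol. Genes were kept with edgeR's filterByExpr (minimum count 10 in 4 mice, total 15), scaled by TMM and tested with the quasi-likelihood F-test of edgeR 4.0.16 in R 4.3.3, with Benjamini-Hochberg adjustment over all 15474 genes. All tests were two-sided. The SE of a log2 fold change was derived from its F statistic. Levels are TMM-scaled CPM, and log2 CPM used a prior count of 2. Library totals are 21633925 to 42391106 counts. Fgfrl1 and Fgfr2, with 13 counts in the lowest library, had the least depth of the members.

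The members and gene lists were chosen with earlier results of these data known. All members are named, and from each list the genes at an unadjusted p under 0.05 and the gene most abundant per kilobase, 1 of which is not reported here. The marker sums, covariates and other alternatives (DESeq2 1.42.0, limma-voom with limma 3.58.1, other scaling and filters, each mouse left out) are described in the closing section. On simulated counts of this comparison, the fit made 0 calls among 15253 genes without change. It recovered 62.2% of genes changed 2-fold (15297 genes fitted) and 89.6% of those changed 4-fold (15317 genes fitted). Of its calls, 4 of 126 were false at 2-fold and 12 of 185 at 4-fold. The simulated counts were drawn for each gene separately, so they lack variation shared between genes, such as that of acinar content. Each mouse is 1 replicate, and within each group no pair of libraries agreed within sampling noise (chi-square per degree of freedom at least 72.9). Other assays of the study are not analysed here.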

Additional observations from a re-analysis of the deposited data

Results flagged for a closer look

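Among 40 sets of 4 mice (members and named genes, in each group), 3 held a mouse farther from the others than Dixon's critical value for 4 samples allows, and chance would give 2. Fgf14 was 3.31 CPM in βIgf1r mouse M151 and 1.68 to 1.80 CPM in the other 3 controls. Dusp5 was 33.1 CPM in βIgf1rKD mouse M146 and 26.7 to 27.1 CPM in the other 3 knockdown mice. Api5 was 74.6 CPM in βIgf1r mouse M152 and 97.3 to 100.1 CPM in the other 3 controls.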

How the results depend on the processing

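The count of genes at an adjusted p under 0.05 was 0 in edgeR, 8 by DESeq2 and 1 by limma-voom, and 0 with any 1 mouse left out. The 637 genes at an unadjusted p under 0.05 of 15474 became 1098 of 27738 without a filter on low counts, 373 with the acinar score and 1143 with Xist as a covariate, and 383 (without M148) to 1114 (without M152) with 1 mouse left out (402 without M153 and 960 without M146). Of the 9 members other than Fgf1, 1 was at an unadjusted p under 0.05 by limma-voom (Fgfr4), with 10 counts required in every mouse (Fgfr4) and with the endothelial score (Klb), and 0 to 2 with 1 mouse left out (Fgf12 and Fgfr1 without M152, Fgfr4 without M153, Fgfrl1 without M146). None of the 9 passed the adjusted threshold under any alternative. Fgf1, chosen for its difference in these mice, had values from -1.01 to -0.57 with 1 mouse left out and -0.02 (SE 0.41) with the endothelial score. Directions turned for Fgf14 (0.064 without M151; -0.45 to 0.064 over mice left out, and -0.98 with the endothelial score, in the main direction), Fgfr3 (-0.19 with the acinar score, and -0.19 to 0.21 over mice left out), Klb (0.0030 by limma-voom, and -0.22 to 0.092 over mice left out), Igf1r (0.027 with the endothelial score and 0.023 with Xist), Mapk3 (0.067 with the acinar score, and -0.08 to 0.012 over mice left out), Dusp5 (0.25 with the endothelial score) and Api5 (0.0025 with the acinar score, 0.018 with the endothelial score, and -0.13 to 0.016 over mice left out). The cause was not tested. No paired analysis was possible because no mouse number occurs in both groups. Fgfr2, Fgfr4, Fgfrl1 and Fgf14 are limited by counts.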
